A study of Mus musculus with 4 samples.

Results

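Small nucleolar RNAs (snoRNAs) were examined in mouse embryonic fibroblasts (MEF cells) that were wt or lacked the DNA topoisomerase Top2β. Members were all gene entries of the deposited count table whose GENCODE M21 symbol is Snora or Snord followed by a digit, which gave 141 of 54842 genes, 42 of the H/ACA class (Snora) and 99 of the C/D class (Snord). Total RNA without ribosomal RNA had been sequenced in 4 libraries, 2 per genotype, from untreated cells. The null cells were a gift from other laboratories and were derived from mice without Top2β, so genotype and origin of the cells cannot be told apart. Nothing in the labels says that the libraries came from separate cultures, and p-values therefore measure only the spread between these libraries.

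snoRNAs are stable nuclear RNAs that guide enzymes to chosen bases of other RNAs, mainly ribosomal RNA in the nucleolus. C/D snoRNAs carry a C box and a D box near their ends and guide ribose methylation by fibrillarin, whereas H/ACA snoRNAs end in an ACA box and guide pseudouridylation by dyskerin. In mammals, most of them are cut out of introns of host genes, many of which code for ribosomal proteins or other parts of the translation machinery, and a few, among them U8 (Snord118) and U13 (Snord13), are transcribed from genes of their own. The mature RNAs are short, whereas the sequenced fragments were read from both ends over a length that exceeds most snoRNAs. The counts thus do not separate the mature snoRNA from unspliced host transcripts that run across it.

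The sequence boxes went with the class given by the symbol. The letters CTGA of the D box were found in the last 20 bases of 97 of 99 Snord entries, and TGATGA, which stands for the C box, in the first 20 bases of 70. Both counts include 17 Snord116l entries, which are near copies of each other and all carry both stretches. ACA lay in the last 8 bases of 40 of 42 Snora entries and of 7 Snord entries. Among all 1507 snoRNA genes of GENCODE M21, the shares were 35.4% for CTGA, 21.7% for TGATGA and 46.8% for ACA. These letters were searched on the transcribed strand alone, and CTGA may overlap other boxes. The sequences below, taken from GENCODE M21 and written 5′ to 3′, belong to the 4 snoRNA genes with the largest falls at a mean level above 100, to a second snoRNA of the same host gene as one of them and to Snora47, which had the largest rise among the Snora genes. Capitals mark TGATGA and CTGA in Snord entries and ACA in Snora entries, where they were found in these windows.
Snord111: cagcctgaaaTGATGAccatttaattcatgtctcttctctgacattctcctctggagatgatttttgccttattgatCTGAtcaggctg
Snord43: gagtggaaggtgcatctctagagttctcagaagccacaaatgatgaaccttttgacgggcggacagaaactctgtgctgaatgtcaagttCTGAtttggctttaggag
Snord100: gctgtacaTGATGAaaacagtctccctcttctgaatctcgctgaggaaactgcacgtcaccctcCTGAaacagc
Snora31: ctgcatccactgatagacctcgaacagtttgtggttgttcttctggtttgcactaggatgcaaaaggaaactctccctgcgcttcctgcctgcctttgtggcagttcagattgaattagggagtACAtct
Snora33: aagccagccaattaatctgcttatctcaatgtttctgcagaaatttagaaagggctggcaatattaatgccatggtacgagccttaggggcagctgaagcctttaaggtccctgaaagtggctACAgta
Snora47: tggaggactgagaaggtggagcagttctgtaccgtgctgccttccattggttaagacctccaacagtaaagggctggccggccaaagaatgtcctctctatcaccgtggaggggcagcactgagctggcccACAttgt

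The 4 libraries held between 133116830 and 149647278 counts. Snora entries together took 116.77 to 131.65 and Snord entries 147.0 to 160.6 counts per 1e6 counts of a library (CPM), and the median level of a tested snoRNA gene was 219 normalized counts. Normalized counts are counts scaled by edgeR's TMM factors, and all levels given here are in that unit unless stated. Top2b itself was at 20.9% of the wt level in the Top2β-null libraries. All 8 fibroblast markers were present, with a summed level of 1287560 to 1311740 in the wt libraries and 874051 to 879004 in the null libraries, but they moved apart. Col1a1 (38.4% of wt), Vim, Fn1 and S100a4 fell, Thy1 (421%), Pdgfrb (368%) and Pdgfra (224%) rose, and Col1a2 did not pass the test. The summed leukocyte, epithelial, endothelial and neuronal marker levels were 2420 to 2501, 67.6 to 70.5, 121 to 127 and 2122 to 2148 in wt against 1351 to 1356, 19.7 to 19.8, 242 to 254 and 4544 to 4848 in Top2β-null MEF cells. Of these, 4 of 8, 2 of 4, 0 of 3 and 2 of 4 markers stayed under 10 in every library, and the part of such cells in the snoRNA results was not tested. The leukocyte sum was carried by Cd68, which fell from 1665 to 296 on average, whereas Itgam, Csf1r and Fcer1g rose.

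The summed snoRNA level was lower in the Top2β-null cells, and larger falls of single genes were few. In wt MEF cells, the Snora entries summed to 18869 ± 85.3 (SD, n = 2), against 16087 ± 16.9 (SD, n = 2) without Top2β, that is 85.3% of wt. The Snord entries summed to 23109 ± 158 (SD, n = 2) with and 20258 ± 16.9 (SD, n = 2) without Top2β, that is 87.7% of wt. In both classes, each Top2β-null library lay below each wt library, and the sums are led by the abundant members. Scaling to the total count moved the log2 ratio of these sums from -0.23 to -0.16 for Snora and from -0.19 to -0.12 for Snord.

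Of the 141 entries, 121 (41 Snora and 80 Snord) reached 10 counts in 2 libraries or more and were tested, while 18 had no count in any library. With p-values of edgeR's quasi-likelihood test, adjusted by Benjamini-Hochberg over all features, 34 of the 121 had an adjusted p below 0.05 and were lower in Top2β-null MEF cells, 8 were higher and 79 were neither. Over all 25085 genes tested, the same threshold was passed by 33.7% lower and 32.8% higher. The snoRNA genes passed it in the lower direction at 28.1%, a little below the background, and in the higher direction at 6.61%. At a mean level above 100, the shares were 31.4% lower and 7.84% higher of 102 snoRNA genes, against 40.3% and 37.3% of all genes. A stricter call followed the cut-offs of the study's methods, an adjusted p below 0.05, a log2 fold change beyond 1 in either direction and a mean level above 100. It was met by 4 snoRNA genes that fell, Snora31, Snora33, Snord111 and Snord43, and by 0 that rose, where the background was 5.25% of genes lower and 5.52% higher. Among all genes with a mean level above 100, that background was 7.91% lower and 8.32% higher.

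The classes were set side by side. Among Snora genes, 16 of 41 fell, 5 rose and 20 did not pass, with a median log2 fold change of -0.16 and a range of -1.11 to 0.71. Among Snord genes, 18 of 80 fell, 3 rose and 59 did not pass, with a median of -0.07 and a range of -2.15 to 0.88. The median over all genes tested was -0.0058. At a mean level above 100, 40.0% of Snora and 25.8% of Snord genes were lower, against 40.3% of all genes. At that level, 12.5% of Snora and 4.84% of Snord genes were higher, against 37.3% of all genes. The Snora share of lower genes thus equalled the background, and the Snord share lay below it. The Snora genes also had the smaller standard errors, with a median of 0.104 against 0.134, and the higher median level, 263 against 178. When library totals were used for scaling, the median of all genes moved to 0.06 and the split became 13 lower and 7 higher for Snora and 17 lower and 9 higher for Snord. The Snora share of all snoRNA counts was 45.1% and 44.8% in the wt and 44.3% in both Top2β-null libraries. This difference of -0.69 percentage points had a two-sided exact permutation p of 0.33, the smallest that 2 libraries against 2 can give.

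**Figure D1:**
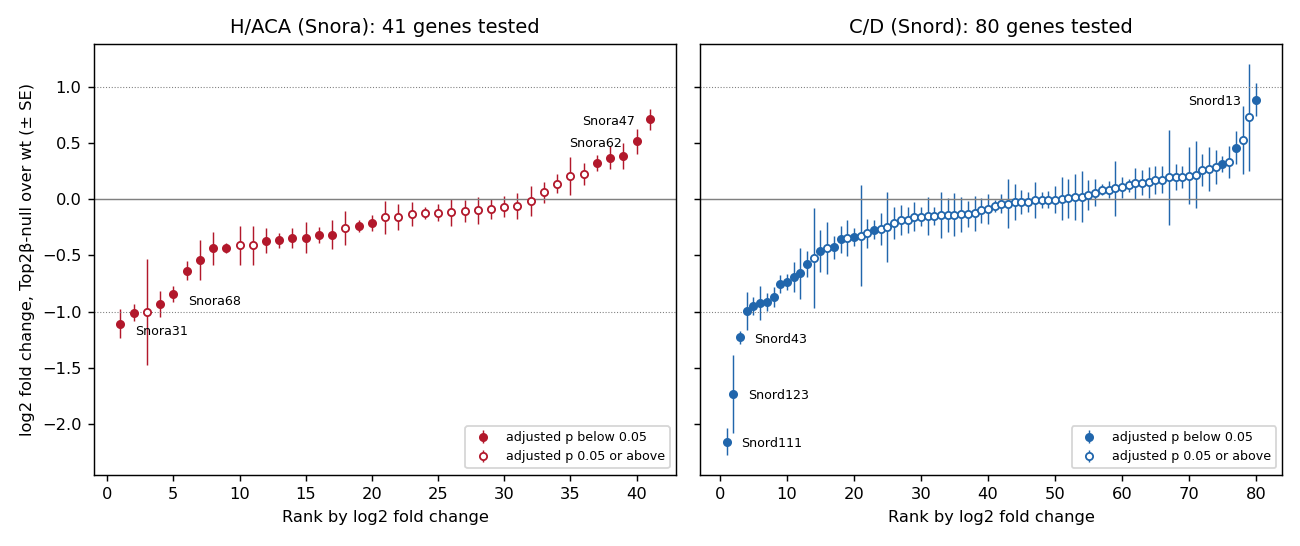
Fitted log2 fold change of Top2β-null over wt MEF cells (y axis, bars are ± SE) for 41 Snora genes (left) and 80 Snord genes (right), ranked from lowest to highest (x axis), filled where the adjusted p was below 0.05. Most points lie between the dotted lines at -1 and 1, and Snord111 at -2.15 is the lowest.

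The largest fall was that of Snord111, a C/D snoRNA at chr8:110838528-110838616 (GRCm38, minus strand). Its counts were 372 and 400 in the wt and 82 and 87 in the null libraries. This gave 381 ± 7.70 and 85.5 ± 0.878 normalized counts (SD, n = 2). The groups lay apart, here and in the other called genes below. Their choice by size and adjusted p makes this likely, so it adds no support. The log2 fold change of Snord111 was -2.15 (SE 0.122, adjusted p = 1.65e-10, edgeR). Snord111 lies within Sf3b3, which codes for a subunit of the spliceosomal SF3b complex, and an annotated Sf3b3 exon overlaps it. Sf3b3 was at 177990 and 182637 in the wt and 49149 and 48700 in the Top2β-null libraries, a log2 fold change of -1.88.

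Snord43 (chr15:80082847-80082954, minus strand) lies in an intron of Rpl3, which codes for a protein of the large ribosomal subunit, and GENCODE M21 lists the entry as a miRNA gene. Its level was 1349 and 1352 in the wt and 575 and 579 in the Top2β-null libraries, so that replicates were almost equal and the groups apart. The log2 fold change was -1.23 (SE 0.0573, adjusted p = 1.42e-11, edgeR), and that of Rpl3 was -1.20. Snord83b, another C/D snoRNA in a different intron of Rpl3, stood at 728 and 810 in the wt against 430 and 387 in the Top2β-null libraries. It fell by 0.91 on the log2 scale and so missed the stricter call.

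Snora31 (chr14:75847905-75848034, plus strand) belongs to Tpt1, the gene of translationally controlled tumor protein. Its counts of 278 and 347 in the wt and 146 and 136 in the Top2β-null libraries gave 308 ± 38.6 and 143 ± 11.7 normalized counts (SD, n = 2). The wt libraries differed from each other more than those of the other called genes, and both stayed above the Top2β-null libraries. The log2 fold change of Snora31 was -1.11 (SE 0.129, adjusted p = 1.30e-06, edgeR), whereas Tpt1 was at -0.74. Without the second wt library, the fold change of Snora31 was -0.988, just short of the call.

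Rps12, which codes for a protein of the small ribosomal subunit, holds snoRNAs of both classes. Snora33 (chr10:23785347-23785475, minus strand) was at 614 and 631 in the wt and 313 and 306 in the Top2β-null libraries. Snord100 (chr10:23785750-23785823, minus strand) was at 641 and 603 in the wt and 336 and 308 in the Top2β-null libraries. For both, the Top2β-null libraries lay below the wt libraries, which their choice by size and adjusted p makes likely. The log2 fold changes were -1.01 (SE 0.077) for Snora33 and -0.95 (SE 0.0805) for Snord100, against -0.55 for Rps12. Snora33 lay at the edge of the call, which ended without either Top2β-null library (-0.984 and -0.973), and Snord100 met it without the second wt library (-1.01).

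A further group fell by just under the limit. Snord60, in the noncoding gene Rab26os, was at 166 and 171 in the wt and 72.5 and 96.1 in the Top2β-null libraries, and its log2 fold change of -0.99 reached -1.19 without the second Top2β-null library and -1.03 without the first wt library. Snora2b, in Kansl2, a gene of the NSL histone acetyltransferase complex, was at 299 and 329 in the wt and 175 and 155 in the Top2β-null libraries, with a log2 fold change of -0.93 that was -1.01 without the first wt library. In each of these genes, both Top2β-null libraries were below both wt libraries, which their choice by size and adjusted p makes likely. Snord37, in the gene of elongation factor Eef2, was at -0.93, Snord72, in the ribosomal protein gene Rpl37, at -0.87 and Snora68 at -0.84. Snora68 had 1186 and 1055 normalized counts in the wt and 599 and 648 in the Top2β-null libraries. Of the other genes that fell, Snord123 had a log2 fold change of -1.73 but only 50.5 and 37.7 normalized counts in the wt and 12.4 and 13.9 in the Top2β-null libraries, too few for the stricter call.

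The 8 snoRNA genes that rose did so by less than 2-fold. Snord13, the U13 snoRNA, which has no host gene, had counts of 120 and 103 in the wt and 193 and 208 in the Top2β-null libraries. Its normalized level rose from 110 ± 15.3 (SD, n = 2) to 203 ± 4.33 (SD, n = 2), a log2 fold change of 0.88 (SE 0.146, adjusted p = 6.06e-05, edgeR). It was the largest rise among the Snord genes and passed the stricter call, at 1.01, without the first wt library. The repeat families named U13 and U13_ in the same count table did not pass the test, at 0.30 (adjusted p = 0.383, edgeR) and -0.22 (adjusted p = 0.264, edgeR). Nor did the family U17 (-0.28, adjusted p = 0.115, edgeR), and U14 and U8 were not tested. The family U3 passed, at -3.69 (adjusted p = 0.00158, edgeR). Its counts were 8843 and 355 in the wt and 346 and 360 in the Top2β-null libraries, so this fall rested on the first wt library. Snora47 (chr13:95330600-95330737, plus strand), in the zinc finger gene Zbed3, was at 224 and 245 in the wt and 384 and 383 in the Top2β-null libraries. It had the largest rise among the Snora genes, 0.71 (SE 0.096), beside 0.52 for Zbed3. The remaining ones were Snora62 in the ribosomal protein gene Rpsa (0.51), Snord68 in Rpl13 (0.46), Snora41 in the elongation factor gene Eef1b2 (0.38), Snora75 in the nucleolin gene Ncl (0.37), Snora57, which had no host by the rule used (0.32), and Snord96a in Rack1 (0.31). All 8 had both Top2β-null libraries above both wt libraries, which their choice by adjusted p makes likely and which adds no support. Snord68 did not pass with DESeq2, and Snord68, Snora41 and Snora75 did not pass without the second wt library.

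**Figure D2:**
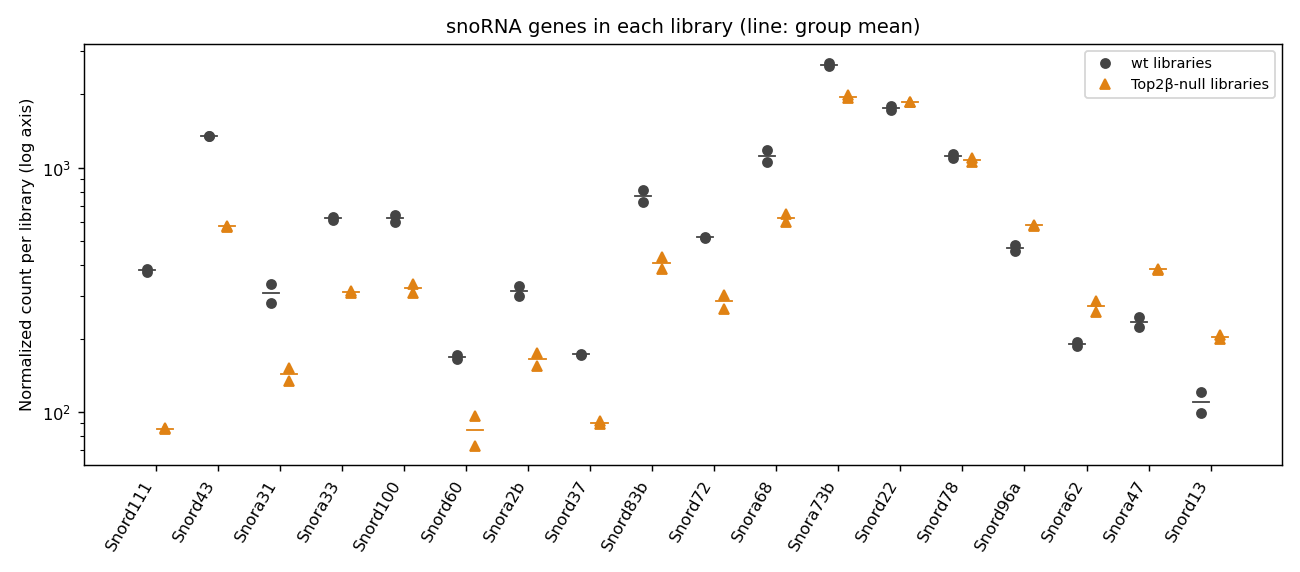
Normalized count (y axis, log scale) of 18 snoRNA genes (x axis) in the wt libraries (circles) and the Top2β-null libraries (triangles), with a line at each group mean. The groups are apart for Snord111, Snord43 and the other genes on the left, close together for Snord22 and Snord78, and apart in the other direction for Snora47 and Snord13.

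The members with the highest counts had smaller fold changes, apart from Snord43. Per kilobase of RNA, the mean normalized level was highest for Snord78 (16638), Snord22 (14386), Snora15 (11859) and Snora73b (11234). Snora73b, a copy of the U17 snoRNA that takes part in cleavage of the ribosomal RNA precursor, was at 2612 and 2684 in the wt and 1979 and 1936 in the Top2β-null libraries, a log2 fold change of -0.44 (SE 0.043, adjusted p = 1.83e-07, edgeR). The second copy, Snora73a, lies in the same host, the noncoding gene Snhg3, and was at 1314 and 1255 in the wt and 1189 and 1169 in the Top2β-null libraries (-0.12, adjusted p = 0.0523, edgeR). Snora15, in the chaperonin gene Cct6a, fell by 0.24, Snora52, in the ribosomal protein gene Rplp2, by 0.21 and Snora17 by 0.37 on the log2 scale. The call for Snora52 was lost without the first wt library, without the second Top2β-null library, with DESeq2 and with scaling to the total count.

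The C/D snoRNAs with the highest counts did not pass the test, again apart from Snord43. Snord22, in the noncoding host Snhg1, was at 1787 and 1733 in the wt and 1868 and 1862 in the Top2β-null libraries (0.08, adjusted p = 0.125, edgeR). Snord17, in Snx5, was at 1599 and 1743 against 1905 and 1737, with overlapping groups. Snord78 and Snord47, both in the noncoding host Gas5, had log2 fold changes of -0.06 and -0.01 and overlapping groups as well. Snord118, the U8 snoRNA, which takes part in maturation of the large ribosomal subunit, was at 294 and 322 in the wt and 296 and 395 in the Top2β-null libraries, and its value of 0.17 became -0.04 without the second Top2β-null library.

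At the other end, all 17 Snord116l entries, copies of the imprinted snoRNA cluster on chromosome 7 inside Snhg14, and Snora35, inside the serotonin receptor gene Htr2c, had no count in any library. At 0 counts the data cannot tell whether these copies are silent or whether their reads were given to other entries. Entries that overlap share reads. The pair named Snora16a had identical counts, and the pairs named Snora43 and Snord80 overlap in position, so that the 141 entries stand for 138 symbols. A further limit is that 56 entries, 39 of them tested, had at least 90% identity to another entry, and reads that fit both could be shared or moved between them.

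Fold changes of snoRNA genes were correlated with those of their host genes. By position and strand, 134 of the 141 entries lay in 83 host genes. Of these, 64 overlapped an annotated exon of the host in whole or in part, where reads of spliced host RNA may be counted for both. Over the 113 pairs in which both were tested, the log2 fold changes of snoRNA and host had a Pearson r of 0.726 and a Spearman rho of 0.652, given as a description across genes that share libraries and, in part, reads. Of these pairs, 104 lay within 0.5 of each other and 83 had the same sign. Since 95 of the 121 tested snoRNA genes lay within 0.5 of 0 by themselves, closeness within 0.5 says little about the host. With a mean level of the snoRNA above 100, r was 0.821 over 94 pairs. Outside host exons, it was 0.855 over 39 such pairs.

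By kind of host, the share of lower genes was above the 33.7% of all genes tested for ribosomal protein hosts and below it for the other kinds. Among all genes with a mean level above 100, however, 40.3% were lower, and the share for ribosomal protein hosts was near that value. Its 35 members also came from only 25 hosts. Shares of higher genes lay below the 32.8% in every kind, and these differences were not tested. Here 14 of 35 tested members in ribosomal protein genes fell and 3 rose, with a median log2 fold change of -0.19. Among 45 in other coding genes, 11 fell and 3 rose (median -0.14). Among 34 in hosts of any other M21 gene type, 8 fell and 0 rose (median -0.12). These hosts include the chaperonin gene Cct6a, which M21 lists as a processed transcript, and its Snora15 is one of the 8. Of the 7 without a host, 1 fell and 2 rose. There were 23 hosts with more than 1 tested member, 57 members in all, and in 20 of them the members lay within 0.5 of each other. This too says little, as 95 of the 121 tested snoRNA genes lay within 0.5 of 0. In Ncl, both Snora75 and Snord82 were above 0 (0.37 and 0.29), in Kansl2 both Snora2b and Snora34 fell (-0.93 and -0.54), and in Wdr43, a gene for ribosome assembly, Snord53 and Snord92 did (-0.76 and -0.46). Snord92 varied within groups, with counts of 223 and 189 for wt and 179 and 113 for null, and its value was -0.12 without the second Top2β-null library.

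Some snoRNA genes differed from their host. The heat shock cognate gene Hspa8 fell by 0.72 on the log2 scale, from 327586 and 331592 in the wt to 200814 and 200206 in the Top2β-null libraries. Its U14 snoRNAs Snord14c, Snord14d and Snord14e were at -0.14, -0.18 and -0.03, and none of them passed the test. The value of Snord14e turned to 0.044 with scaling to the total count. Snord14e, for example, was at 311 and 282 in the wt and 272 and 309 in the Top2β-null libraries, with overlapping groups. The log2 ratio of Snord14e to Hspa8 within each library was higher in Top2β-null MEF cells by 0.69 (pooled SD 0.122), without overlap. Annotated exons of Hspa8 overlap these snoRNAs. The reverse was seen for Snord42b in the ribosomal protein gene Rpl23a, which was at 280 and 257 in the wt and 169 and 190 in the Top2β-null libraries (-0.58, adjusted p = 0.000468, edgeR), while Rpl23a was at 0.04. Snord7 fell by 0.66 while its noncoding host AA465934 rose by 1.19, and Snord7 had a mean level of only 64.2. No test of the difference between snoRNA and host was run.

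**Figure D3:**
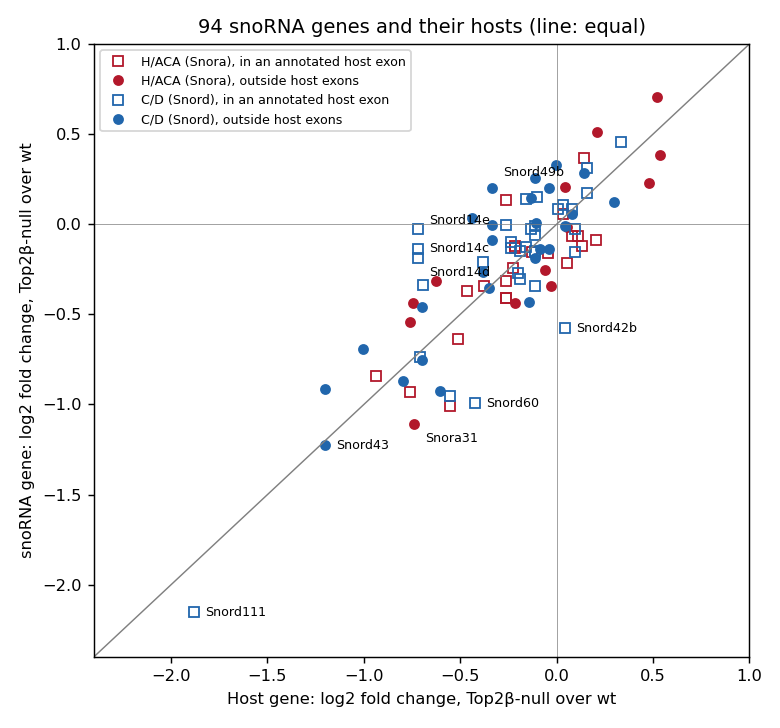
log2 fold change of Top2β-null over wt MEF cells for 94 snoRNA genes with a mean level above 100 (y axis) against that of their host genes (x axis), in red for H/ACA and blue for C/D, open where an annotated host exon overlaps the snoRNA. Points follow the line of equal change (r 0.821), with Snord14c, Snord14d and Snord14e above it and Snord42b and Snord60 below it.

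Fold changes of snoRNA genes also differed between chromosomes. On chromosomes 15, 17 and 10, the median log2 fold change of all other genes with a mean level above 100 was -0.57, -0.46 and -0.38, the lowest of the 20 chromosomes with tested snoRNA genes. These 3 chromosomes, picked after their medians had been seen, held 18 tested snoRNA genes, of which 15 (83.3%) fell and 0 rose, with a median of -0.81. Among the other genes on chromosomes 15, 17 and 10, 77.5%, 74.6% and 69.7% were lower at the same threshold, so the count of snoRNA genes lay near that of their chromosomes. On the other chromosomes, 19 of 103 fell and 8 rose, with a median of -0.09. All 6 tested on chromosome 15 fell, among them Snord43, Snord83b, Snora2b and Snord72. With the median of its chromosome subtracted from each gene, the median over the 121 snoRNA genes went from -0.13 to -0.08, and Snord111 alone remained below -1 with a mean level above 100.

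Several of the largest falls lay in stretches where neighbouring genes were lower as well. Within 1 Mb of Snord111, all 34 other genes with a mean level above 100 were lower in Top2β-null MEF cells at an adjusted p below 0.05, with a median log2 fold change of -1.27. Around Snord71, on the same chromosome, this held for 21 of 22 (median -1.25), around Snora33 and Snord100 for 7 of 8 (median -1.14) and around Snora31 for 13 of 14 (median -1.04). Snora68 was unlike these, since 28 of its 73 neighbours were lower, 38 were higher and their median was 0.10. Snord118 differed the other way, with 52 of 67 neighbours lower at a median of -1.96 while its own value was 0.17. All 6 neighbours of Snord13 were higher (median 0.32), as were 7 of 10 of Snora47 (median 0.53). Across the 102 snoRNA genes with a mean level above 100, the correlation of the fold change with the median of the neighbours was r 0.634 (rho 0.571), a description across genes that share neighbours. The copy number of DNA was not measured, and its part in these falls was not tested.

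**Figure D4:**
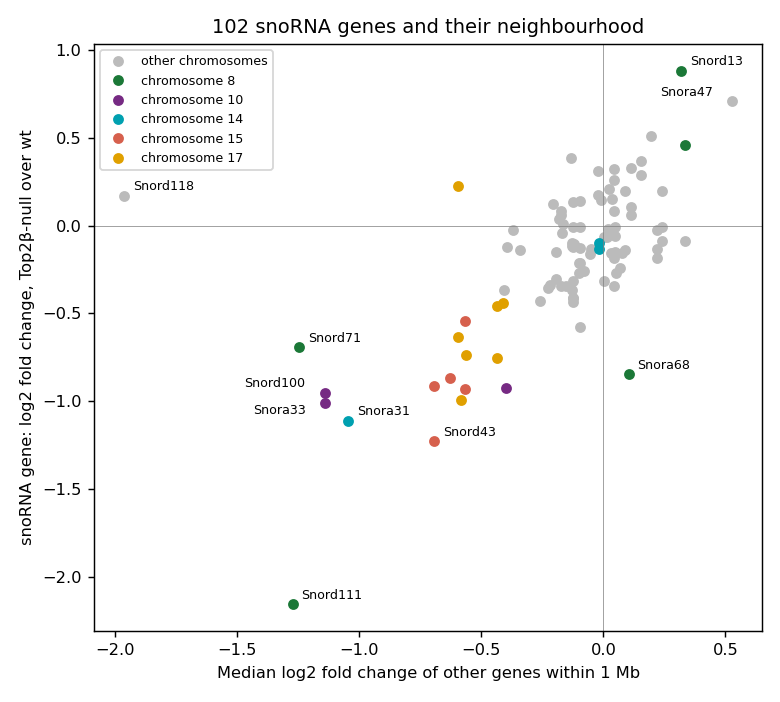
log2 fold change of 102 snoRNA genes with a mean level above 100 (y axis) against the median log2 fold change of other genes within 1 Mb, without the host (x axis), coloured by chromosome. Snord111, Snora31, Snora33 and Snord100 lie low on both axes, Snora68 is low on the y axis alone, and Snord118 is low on the x axis alone.

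The snoRNA genes were then refitted without each library in turn, save that Snora36b could not be tested without either wt library and Snord90 without either Top2β-null library. None of the tested ones had more than 50% of its normalized counts in a single library, and with a mean level above 100 the largest share was 41.4%, in Snord111. Leaving out 1 library changed the sign of 27 of the 121 and the stricter call of 7. By this rule, 34 in all, 7 Snora and 27 Snord, were listed as resting on a single library. A sign change in a gene with almost no change shows no effect that rests on 1 library. The rule also leaves out genes that lost only their adjusted p. The same share over all genes was not counted. Among the sign changes, Snord23, with a mean level of only 15.4, had the largest log2 fold change (-0.52, with -0.94 to 0.05 over the refits), and the next was Snord118 at 0.17. The call changes concerned genes near the limit of 1, namely Snora31, Snora33, Snora2b, Snord60, Snord83b, Snord100 and Snord13. Snord111 and Snord43 stayed called in each of the 4 refits, at -2.19 to -2.10 and -1.24 to -1.18. For the adjusted p alone, only losses are listed next. Some genes passed only without 1 library, among them Snord17, Snord93, Snora78 and Snord118. Of the 42 snoRNA genes with an adjusted p below 0.05, 29 kept it in all 4 refits and 13 lost it in at least 1. The 13 were Snora20, Snora28, Snora34, Snora41, Snora44, Snora52, Snora70, Snora75, Snord7, Snord16a, Snord58b, Snord68 and Snord92. Snord16a, for example, was at 436 and 430 in the wt and 369 and 349 in the Top2β-null libraries, and its adjusted p of 0.0087 became 0.069 without the second Top2β-null library.

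**Figure D5:**
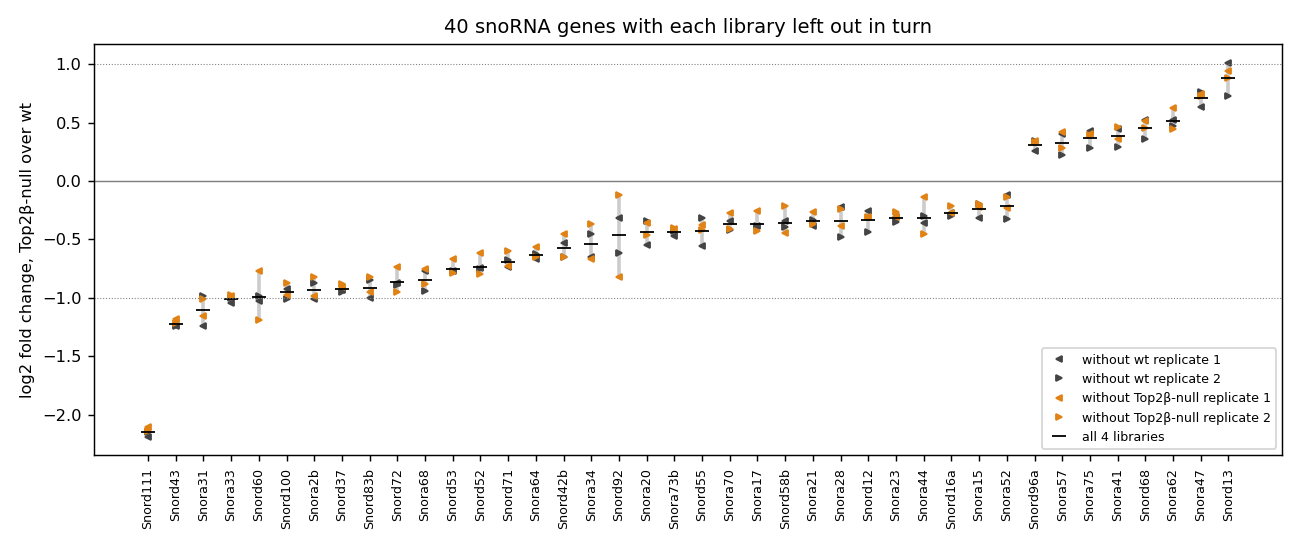
log2 fold change of the 40 snoRNA genes with an adjusted p below 0.05 and a mean level above 100 (x axis, ordered), with all libraries (dash) and without each library (arrowheads, grey for wt and orange for Top2β-null), with the range as a bar. The bars of Snora31, Snora33, Snora2b, Snord60, Snord83b, Snord100 and Snord13 cross a dotted line at -1 or 1, and none crosses 0.

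Genes of proteins that carry, assemble or trim snoRNAs were counted as well. Of 25 such genes, 11 fell and 8 rose at an adjusted p below 0.05, with a median log2 fold change of -0.06, where the background over all genes with a mean level above 100 was 40.3% lower and 37.3% higher. Only Nufip1, an assembly factor of the C/D particle, met the stricter call, at 5204 and 5307 in the wt and 2626 and 2555 in the Top2β-null libraries (-1.02). This call ended with scaling to the total count and without the second Top2β-null library. Of the C/D core, the methyltransferase fibrillarin (Fbl) was at -0.13, Nop56 at -0.38, Snu13, which binds the C and D boxes, at -0.78, and Nop58 at -0.04, which did not pass. Of the H/ACA core, the pseudouridine synthase dyskerin (Dkc1) fell by 0.54, as did Nop10, whereas Gar1 and Nhp2 rose by 0.20 and 0.18 on the log2 scale.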

How the data were processed

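Total RNA of 2 wt and 2 Top2β-null MEF libraries had been depleted of ribosomal RNA, and sequenced. The authors trimmed the reads (Trim Galore!), aligned them to mm10 (STAR, multiple alignments kept) and used TEtranscripts to count them per Gencode gene and per repeat family. What they deposited are raw counts in whole numbers. The counting mode and its strand setting are not given in the sources used here.

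Symbols, positions, hosts and sequences are those of GENCODE M21 on GRCm38, matched for 54495 of 54842 gene identifiers. The authors counted over an earlier Gencode release, so counted intervals may differ from the M21 positions, lengths and host exons. A host is the same-strand gene that contains the entry. Where there were several, genes with a name other than a clone name, then genes other than pseudogenes, then the shortest were preferred. In R 4.3.3, edgeR 4.0.16 was run over genes and repeat families together, with features of at least 10 counts in at least 2 libraries, TMM factors, a quasi-likelihood fit with genotype alone and Benjamini-Hochberg adjustment. Standard errors come from the log2 fold change and the root of the F statistic. Normalized counts are scaled to a common effective library size. The fit was tested on simulated data. Alternatives were DESeq2 1.42.0, other scalings and filters, a replicate block, each library left out and, added after seeing the data, chromosome medians subtracted.

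Named were all snoRNA genes that met the stricter call, the 5 most abundant of each class, the 3 largest changes by class and direction, and those with a mean level above 100 that rested on 1 library, beside the core proteins and the hosts. Other genes are named with their values already known. The members and lists were chosen with earlier results of these data known.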

Additional observations from a re-analysis of the deposited data

How the results depend on the processing

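Snord111, Snord43 and Top2b kept their direction and call under every alternative with a test. With chromosome medians subtracted, Snord43 was at -0.66, short of the limit of the call. Snord111, with fewer than 100 counts in the Top2β-null libraries, was not tested at 100 counts in every library. With the replicate number as a block, 16 Snora genes were lower and 5 higher and 18 Snord genes were lower and 3 higher, as without it, and the block changed no call by the stricter cut-offs. The labels do not say whether libraries with the same replicate number were handled as a pair. Their deviations had a correlation of 0.02 over 17948 features, which shows no strong shared deviation but cannot settle whether they were paired. Snora genes called lower numbered 1 with total-count scaling, with gene-only TMM factors and with no filter on low counts, 1 to 3 without 1 library, and 0 with chromosome medians subtracted. Snord genes called lower numbered 1 at 100 counts in every library and with chromosome medians subtracted, and 2 to 4 without 1 library, and those called higher 0 to 1. At an adjusted p below 0.05, DESeq2 gave 10 Snora genes lower, and the number of Snord genes higher was 9 with total-count scaling, 5 with no filter and 3 to 5 without 1 library. Scaling to the total count gave medians of -0.092 for Snora and -0.0044 for Snord, and the Snord median was -0.11 to -0.0102 without 1 library. The log2 ratio of the summed Snora counts was -0.222 by DESeq2, -0.218 by gene-only TMM factors, -0.16 by total-count scaling and -0.249 to -0.192 without 1 library. For Snord it was -0.182, -0.178, -0.12 and -0.212 to -0.152. The list of snoRNA proteins held 0 calls under total-count scaling and 0 to 1 without 1 library.

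Of the 254 alternative values of the 43 named snoRNA genes that used all libraries, 223 kept direction and side of the threshold and 24 changed sign. Total-count scaling shifted all genes alike, their median going from -0.0058 to 0.064, as gene-only TMM factors did to 0.0063, so the 12 sign changes with the first and the 4 with the second reflect that common shift and not the single genes. The log2 fold changes that changed sign with scaling to the total count became 0.052 for Snora19, 0.0039 for Snora24, 0.0066 for Snora3, 0.028 for Snord104, 0.042 for Snord14a, 0.044 for Snord14e, 0.045 for Snord45c, 0.061 for Snord47, 0.064 for Snord49a, 0.059 for Snord4a, 0.0099 for Snord78 and 0.064 for Snord99. Those with TMM factors from genes only were 0.0028 for Snord47, 0.0059 for Snord49a, 0.0018 for Snord4a and 0.0064 for Snord99. With no filter, they were 0.0078 for Snord47, 0.011 for Snord49a, 0.0067 for Snord4a and 0.011 for Snord99. Snord49a and Snord99 were at 0.0017 and 0.0026 with DESeq2 and at 0.00046 and 0.00091 with at least 100 counts in every library. Without 1 library, the values that changed sign ranged from -0.095 to 0.083 for Snora19, -0.091 to 0.0056 for Snora24, -0.19 to 0.046 for Snora3, -0.037 to 0.13 for Snora81, -0.14 to 0.085 for Snord104, -0.43 to 0.19 for Snord11, -0.037 to 0.40 for Snord118, -0.079 to 0.025 for Snord14a, -0.27 to 0.031 for Snord14c, -0.11 to 0.10 for Snord14e, -0.24 to 0.0197 for Snord19, -0.11 to 0.038 for Snord45c, -0.041 to 0.078 for Snord47, -0.068 to 0.11 for Snord49a, -0.074 to 0.088 for Snord4a, -0.024 to 0.30 for Snord50b, -0.19 to 0.056 for Snord65, -0.032 to 0.076 for Snord73a, -0.10 to 0.13 for Snord85, -0.27 to 0.0299 for Snord91a and -0.079 to 0.042 for Snord99. The cause of the moves under the other settings was not tested. The standard errors of Snord genes had a median of 0.134 and ran from 0.046 to 0.477, so small changes may have been missed at this depth. Snord1a, for example, did not pass at -0.30 (adjusted p = 0.055, edgeR).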
